A study of Mus musculus with 6 samples.

Results

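Barcodes that carried transcripts of both T cells and B cells were examined in droplet libraries of CD45+ leukocytes isolated from B16-F10 tumors, a transplanted mouse melanoma. A barcode marks one droplet, and the droplet normally holds one cell. The 1305 barcodes described here were selected on their measured counts of unique molecular identifiers (UMIs, each marking one captured transcript). They had at least 600 detected genes with no upper limit and at most 10% mitochondrial UMIs. They also had at least 2 UMIs of the T cell genes Cd3d, Cd3e and Cd3g, at least 2 UMIs of the B cell genes Cd79a, Cd79b and Ms4a1, and at most 1 UMI of the macrophage genes C1qa, C1qb and C1qc. They made up 3.41% of the 38294 barcodes that passed the gene and mitochondrial limits, of 52899 deposited. Each is called a B and T barcode below, and the name says only which transcripts it held.

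Tumors came from female C57BL/6 mice aged 6 to 10 weeks that received 250000 B16-F10 cells. Mice of the αPD-1 group (3 samples) were given αPD-1 antibody at 150 μg, 3 times each week, starting on day 7. Mice of the αPD-1 + corin group (3 samples) received the same antibody and, each day from day 6, 200 μg of corin, an inhibitor of the CoREST complex. Both groups therefore carried PD-1 blockade, and no untreated tumors are among the samples. There were 10 mice per arm. Since no label ties a sample to a mouse, p-values measure the spread between these samples, which may be technical. Cells were frozen, thawed, cleared of dead cells and enriched for CD45 on magnetic beads before droplet loading. The samples held between 52281422 and 84276739 UMIs, and any 2 samples shared between 10 and 32 barcode sequences.

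T cells recognize antigen through the T cell receptor, whose signals pass through the CD3 chains encoded by Cd3d, Cd3e and Cd3g. B cells use surface immunoglobulin, which signals through the chains encoded by Cd79a and Cd79b, and Ms4a1 encodes the surface protein CD20. A single lymphocyte does not normally express both sets. In lymphoid follicles, helper T cells with the transcription factor Bcl6 and the chemokine receptor Cxcr5 meet B cells, and naive B cells carry the IgD heavy chain encoded by Ighd. Lef1 is a transcription factor of naive and stem-like T cells, and Cd4 and Cd8a encode the coreceptors of helper and cytotoxic T cells.

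B and T barcodes were common in the αPD-1 samples and rare in the αPD-1 + corin samples. Counts were 531, 312 and 422 with αPD-1 (replicates 1 to 3), against 11, 23 and 6 with αPD-1 + corin. Their share of kept barcodes was 9.54%, 6.70% and 7.36% in the αPD-1 samples. It was 0.111%, 0.401% and 0.0900% with αPD-1 + corin. The groups did not overlap, and 96.9% of all B and T barcodes came from the αPD-1 samples. The mean share was 7.87% ± 1.49 (SD, n = 3) with αPD-1 and 0.201% ± 0.174 (SD, n = 3) with αPD-1 + corin. The two-sided exact permutation test gave p = 0.1 (adjusted p = 0.4 over 4 quantities, Benjamini-Hochberg), and no smaller p is possible in this design. For counting error alone, the Wilson 95% intervals were 8.79% to 10.3% in the αPD-1 sample with the highest share and 0.268% to 0.601% in the αPD-1 + corin sample with the highest share.

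**Figure D1:**
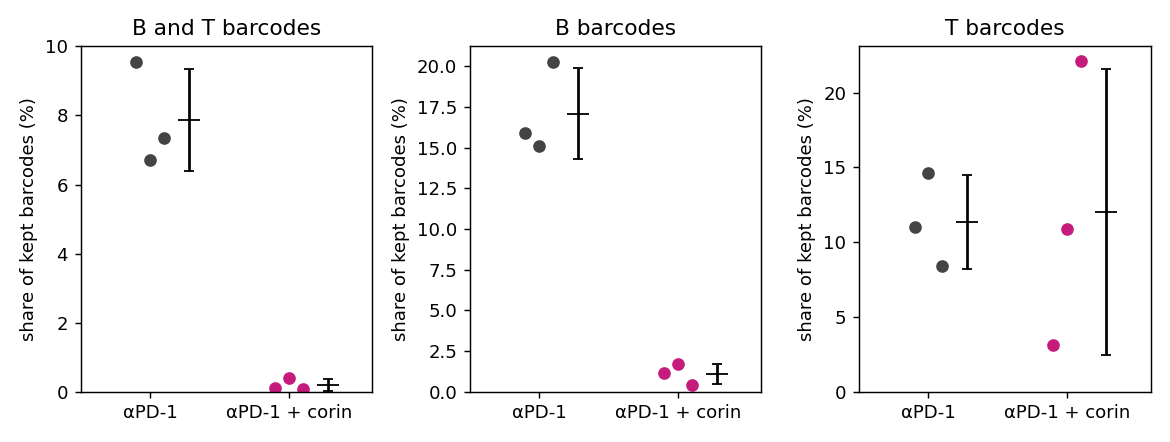
Share of kept barcodes (%) in each sample for B and T barcodes, B barcodes and T barcodes. Points are samples and bars are the mean with SD of 3 samples. B and T barcodes and B barcodes separate the treatments without overlap, and T barcodes overlap.

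B barcodes, with 2 or more B cell UMIs and no T cell UMI, were also less common. They made up 17.1% ± 2.77 (SD, n = 3) of kept barcodes with αPD-1 and 1.09% ± 0.638 (SD, n = 3) with αPD-1 + corin, without overlap. T barcodes, defined in the same way with no B cell UMI, made up 11.4% ± 3.14 and 12% ± 9.57 (SD, n = 3 each), and the groups overlapped. For every 100 B barcodes there were 59.9, 44.3 and 36.3 B and T barcodes with αPD-1 and 9.82, 23.5 and 20.7 with αPD-1 + corin. For every 100 T barcodes there were 86.8, 45.7 and 87.6 with αPD-1 and 3.55, 3.69 and 0.407 with αPD-1 + corin. Among barcodes with either lineage, B and T barcodes were 20.4% ± 3.56 with αPD-1 and 1.95% ± 1.37 with αPD-1 + corin (SD, n = 3 each).

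Since B cell transcripts were rarer with αPD-1 + corin, the number of barcodes with both lineages was set against the product of the separate frequencies. Here all kept barcodes with 2 or more UMIs of a lineage were counted, whatever else they held. The observed number over that product was 1.434, 1.226 and 1.425 with αPD-1, against 2.205, 1.599 and 1.125 with αPD-1 + corin (864, 584 and 664 barcodes against 32, 58 and 33). It was above 1 in each of the 6 samples, and the treatments overlapped. For T cell with macrophage transcripts the same index was 1.20, 1.01 and 1.35 with αPD-1, and 0.889, 1.20 and 1.12 with αPD-1 + corin. For B cell with macrophage transcripts it was 1.06, 0.945 and 1.06 with αPD-1, and 0.982, 0.970 and 1.94 with αPD-1 + corin. In each αPD-1 sample the B and T index was above both others. Of the barcodes counted here, 333, 272 and 242 of the αPD-1 samples also carried macrophage transcripts and were left out of the B and T barcodes by the C1q limit. These indices are descriptions over barcodes that share a library, deeper barcodes pass each limit more easily, and no test was made.

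**Figure D2:**
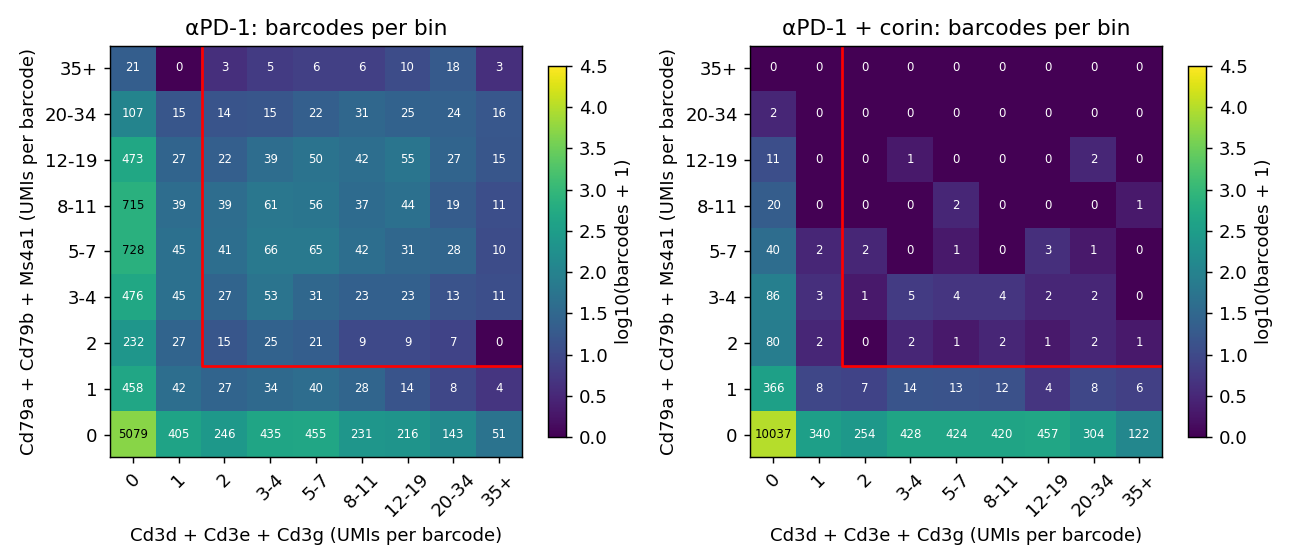
Number of barcodes in each bin of T cell UMIs (x axis) and B cell UMIs (y axis) per barcode, by treatment, among barcodes with at most 1 C1q UMI. The color is log10 of the number plus 1, and the red line bounds the B and T barcodes, which fill the upper right with αPD-1 (1265 barcodes) and hold 40 barcodes with αPD-1 + corin.

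Most B and T barcodes of the αPD-1 samples lay well inside the limits, and fewer of those with αPD-1 + corin did. At least 5 UMIs of each lineage were present in 55.6%, 58.7% and 50.9% of them with αPD-1, and in 0%, 34.8% and 33.3% with αPD-1 + corin. At the edge, barcodes with 2 or more T cell UMIs and exactly 2 B cell UMIs came to 44, 13 and 29 with αPD-1, and those with exactly 1 B cell UMI, just outside, numbered 75, 39 and 41. Their median totals were 4300, 5394 and 5033 UMIs just inside and 3483, 4331 and 4147 UMIs just outside. With αPD-1 + corin, 1, 5 and 3 barcodes were just inside in this way and 14, 20 and 30 just outside, so that the counts of 11, 23 and 6 depend strongly on the limit.

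Markers that the rule did not use were present for both lineages. All 15 other T cell identity genes, among them Trac and Trbc2 of the T cell receptor, were detected in B and T barcodes of the αPD-1 samples, as were all 12 other B cell identity genes, among them Pax5 and Cd22. Each of these 27 genes was at a level between that of T barcodes and that of B barcodes in each of the 3 αPD-1 samples. At least 2 UMIs of T-side and of B-side genes outside the rule were present in 99.6%, 99.4% and 99.5% of the B and T barcodes with αPD-1. The same was true of 25.7%, 23.1% and 25.7% of T barcodes and of 36.0%, 31% and 30.8% of B barcodes of these samples. With αPD-1 + corin it was true of 100%, 95.7% and 83.3% of B and T barcodes, 46.5%, 58.0% and 26.6% of T barcodes and 33.0%, 48.0% and 44.8% of B barcodes. A T-side gene here is one with a level of at least 5 CPM (UMI counts of a gene scaled to a fixed library total). That level is at least 10 times higher in T barcodes than in B barcodes of the αPD-1 samples, and a B-side gene is the converse. These counts were not thinned, and B and T barcodes were deeper than either single class. The side genes were also chosen as low in the other single class, so these shares are descriptions.

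B and T barcodes held more RNA than T or B barcodes. Their median was 7185, 7004 and 6761 UMIs with αPD-1, against 6816, 9208 and 9498 UMIs with αPD-1 + corin. T barcodes of the αPD-1 samples had medians of 2512, 3295 and 2735 UMIs, and B barcodes had 2005, 2115 and 1898 UMIs. Relative to the sum of the medians of T and B barcodes in the same sample, B and T barcodes had 1.59, 1.29 and 1.46 times as many UMIs with αPD-1. The ratio was 1.42, 1.17 and 1.08 with αPD-1 + corin, and therefore above 1 in each of the 6 samples. Over 4000 genes, the upper limit of the study, were detected in 24.3%, 21.2% and 20.6% of the B and T barcodes of the αPD-1 samples, against between 2.27% and 6.44% of T or B barcodes. Other mixed barcodes were deep too. With αPD-1, those with T cell and macrophage transcripts had medians of 8684, 10777 and 5882 UMIs. Those with B cell and macrophage transcripts had 7382, 8566 and 5728 UMIs. Over 4000 genes were detected in 26.4%, 38.1% and 15.5% of the former and in 11.4%, 24.2% and 8.20% of the latter. Median UMIs per B and T barcode overlapped between treatments (6983 ± 213 against 8507 ± 1472, SD, n = 3 each, exact permutation p = 0.3, adjusted p = 0.533). The rule favors deep barcodes, since 4 specific UMIs must be captured, so these depths are descriptions.

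**Figure D3:**
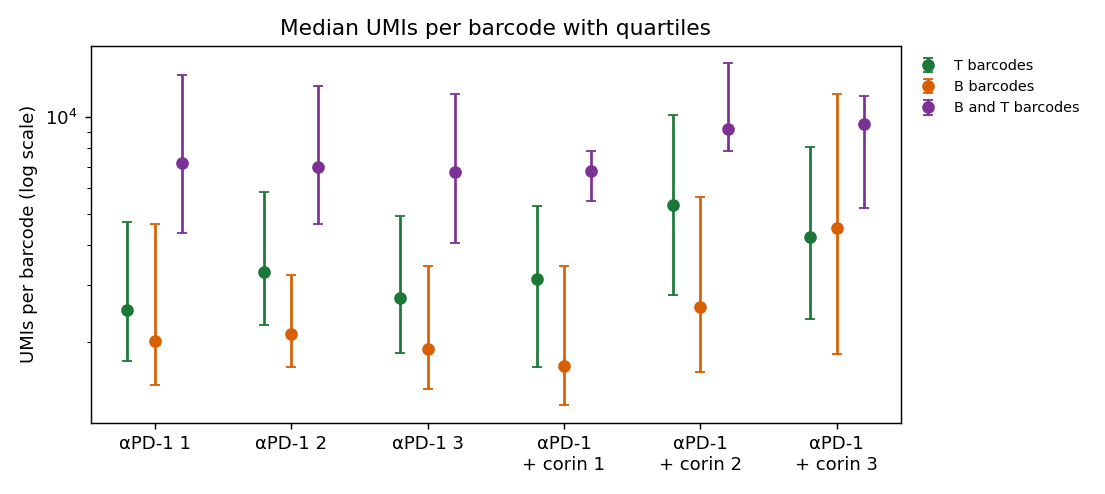
UMIs per barcode (log scale) in each sample. Points are medians and bars run from the lower to the upper quartile, for T barcodes, B barcodes and B and T barcodes. The B and T barcodes lie highest in all 6 samples.

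In the αPD-1 samples the make-up of B and T barcodes was close to a sum of both single classes. Outside immunoglobulin and variable genes, T-side genes reached 57.7%, 66.7% and 56.7% of their level in T barcodes in the αPD-1 samples. B-side genes reached 45.3%, 47.5% and 49.0% of their level in B barcodes. The sums of these shares were 103%, 114% and 106%. Within single B and T barcodes, the T share estimated in this way had a median of 55.9%, 52.6% and 50.9%, and between 78.7% and 82.0% of barcodes had a T share from 20% to 80%. With αPD-1 + corin the sums were 100.3%, 188% and 274%, and those of replicates 2 and 3 were thus well above 100%. The median T share of single barcodes was 56.7%, 46.5% and 21.1% there, and 100%, 82.6% and 33.3% of 11, 23 and 6 barcodes had a T share from 20% to 80%. These sums and shares are scaled to the single classes of the same sample. In replicate 3 the B class was 29 barcodes with B-side genes at 2236 CPM, against 12790 CPM in αPD-1 replicate 2, the lowest αPD-1 sample. Its 6 B and T barcodes had medians of 251 T-side and 29 B-side UMIs, so the share of 21.1% does not mean mostly B cell RNA.

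Of 7446 genes with at least 20 CPM in one of the classes, 373 (5.01%) were above both T and B barcodes in each of the 3 αPD-1 samples, and 424 (5.69%) were below both. Only 2 of the 373 exceeded both single classes by 1.5-fold or more on the mean levels, with 5 CPM added. One was an immunoglobulin variable gene, and the other was Xcr1, a chemokine receptor of cross-presenting dendritic cells. Xcr1 had 20.4, 16.1 and 24.6 CPM in B and T barcodes, 10.5, 9.32 and 7.07 in T barcodes and 4.62, 12.7 and 9.84 in B barcodes. Both single classes stayed below 20 CPM, so Xcr1 met the limit only through the B and T barcodes. Its place above both classes is tied to that limit and is a description. Next among nonvariable genes was Tbxas1, the thromboxane synthase, with 23.4, 19.8 and 33.7 CPM, against at most 22.7 in T barcodes and 17.8 in B barcodes. Its mean level in each single class was below 20 CPM, so it too met the limit only through the B and T barcodes and is a description. Lair1, an inhibitory receptor for collagen, and Csf2ra, a chain of the GM-CSF receptor, had ratios of 1.39 and 1.38 to the nearer single class. Of the macrophage list, Cd68 was above both in all 3 samples, at 83.1, 72.0 and 108 CPM. The 6 macrophage genes, none of them at 0 and with Lyz2 the most abundant, summed to 984, 1019 and 1530 CPM in B and T barcodes, 576, 614 and 1625 in T barcodes and 731, 1164 and 1215 in B barcodes. The 7 dendritic cell genes, with Flt3 the most abundant, summed to 125, 95.2 and 123 CPM in B and T barcodes and to no more than 93.2 in either single class. The part of RNA from these cells was not tested. Of the stress and immediate early list, Ier2 and Dusp1 were above both, and no gene of the T-B contact list of 21 genes (such as Cd40, Cd40lg, Icos and Icosl) was among the 373.

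Of the 5 melanoma genes, Pmel and Dct were below both classes, beside the 5.69% of all genes, and none of the 2 fibroblast genes with at least 20 CPM was. Of the 424 genes below both, 66 were lower by 1.5-fold or more. The largest was Nav3, with 5.79, 3.69 and 1.34 CPM in B and T barcodes, 33.6, 26.7 and 15.1 in T barcodes and 18.5, 29.8 and 30 in B barcodes. Sparc, a matrix glycoprotein, and Serpinh1, a collagen chaperone, were lower by 3.30-fold and 3.27-fold. Dct, an enzyme of melanin synthesis, had 70.1, 72.4 and 139 CPM in B and T barcodes, 115, 304 and 185 in T barcodes and 481, 741 and 577 in B barcodes. Summed over 5 melanoma genes, all of them detected, the level was 187, 226 and 479 CPM in B and T barcodes, where Dct was the most abundant. It was 403, 1032 and 511 in T barcodes, close to the B and T barcodes in replicate 3, and 1798, 2500 and 1890 in B barcodes. Melanoma transcripts in B barcodes bear on every comparison with that class, and their part was not tested.

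By the Cd4 fraction of coreceptor UMIs, the T cell component of the αPD-1 samples was close to T barcodes. Cd8a was at 155, 242 and 164 CPM in B and T barcodes of the αPD-1 samples, 285, 366 and 303 in T barcodes and at most 4.80 in B barcodes. Cd4 was at 43.2, 37.5 and 35.6 in B and T barcodes and 74.1, 46.1 and 66.6 in T barcodes. Both genes were thus lower in CPM than in T barcodes in every αPD-1 sample, as the share of T-side genes was. Cd4 made up 10.8%, 6.58% and 8.69% of the Cd4, Cd8a and Cd8b1 UMIs of B and T barcodes, and 10.3%, 5.45% and 9.23% of those of T barcodes. The difference over all 6 samples was 12.1 percentage points and rested on αPD-1 + corin replicate 1, whose 11 barcodes had a Cd4 share of 87.5% against 13.7% in T barcodes. The exact sign-flip permutation test gave p = 0.594 (adjusted p = 0.594), and without that sample the difference was -0.189 percentage points.

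In the αPD-1 samples, Cd4 and Cd8 transcripts appeared in the same barcode more often in B and T barcodes than in T barcodes. Among barcodes with a coreceptor UMI, both were detected in 21.3%, 15.6% and 16.1% of B and T barcodes and in 5.26%, 4.14% and 4.67% of T barcodes of the αPD-1 samples. B and T barcodes were deeper, so barcodes with equal numbers of coreceptor UMIs were compared. With 4 to 7 such UMIs, both were found in 29.7%, 14.7% and 22.2% of 111, 68 and 81 B and T barcodes, and in 5.49%, 4.07% and 8.16% of 91, 123 and 98 T barcodes. With 2 to 3 UMIs the shares were 18.2%, 12% and 14.9% against 7.25%, 4.5% and 1.96%. The B and T barcodes had the higher share in each αPD-1 sample at each depth. With αPD-1 + corin, 0 of 11, 4 of 23 and 0 of 6 B and T barcodes had both. Among those with a coreceptor UMI these were 0%, 23.5% and 0%, against 2.76%, 6.99% and 6.31% of T barcodes, so that B and T barcodes were lower in replicates 1 and 3. No test of this difference was made.

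Lef1, a gene of naive T cells, was detected in most B and T barcodes of the αPD-1 samples and in a minority of those with αPD-1 + corin. It was at 214, 200 and 184 CPM in B and T barcodes, 331, 234 and 239 in T barcodes and 34.5, 27.7 and 27.4 in B barcodes of the αPD-1 samples. A Lef1 UMI was present in 66.5% ± 5.14 (SD, n = 3) of B and T barcodes and in 50.7% ± 5.98 of T barcodes, against 2.09% ± 0.816 of macrophage barcodes, which should lack it. With αPD-1 + corin it was present in 18.2%, 30.4% and 16.7% of the 11, 23 and 6 B and T barcodes. Thinned to 1000 UMIs each, the αPD-1 shares were 21.8% ± 2.82, 28.9% ± 3.81 and 0.420% ± 0.437, so that the order of B and T and T barcodes turned with depth. Median depths were 6761 to 7185, 2512 to 3295 and 3567 to 4943 UMIs, and 0, 11 and 6 shallower barcodes were left out. Cd8a behaved in the same way, with a UMI in 49.4% ± 1.6 of B and T barcodes and 42.9% ± 4.77 of T barcodes, and 14.9% ± 2.54 and 20.4% ± 1.61 after thinning, against 0.820% ± 0.714 and 0.194% ± 0.336 in macrophage barcodes (SD, n = 3 each).

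Among T-side genes alone, few differed between B and T barcodes and T barcodes. Summed UMI counts of each class in each sample were scaled to the total of T-side genes and fitted with edgeR, with the sample as a block, over the 3 αPD-1 samples. Of 237 T-side genes tested, 0 (0%) were higher and 3 (1.27%) were lower in B and T barcodes at an adjusted p below 0.05, while 26 had an unadjusted p below 0.05. DESeq2 also called 0 higher and 3 lower. The 3 were Serping1 (log2 fold change -3.25 ± 0.37 SE, adjusted p = 0.0422), a complement inhibitor, Rarres2 (-2.50 ± 0.26 SE, adjusted p = 0.0422), the chemoattractant chemerin, and Mical2 (-1.98 ± 0.21 SE, adjusted p = 0.0422), an actin oxidoreductase. Mical2 lies outside the rule for named genes and was chosen after its values were seen. Serping1 was at 63.2, 5.44 and 17.2 CPM in T barcodes and 2.99, 1.01 and 1.07 in B and T barcodes, and none of the 3 genes is a T cell marker. T-side genes entered through a high level in these same T barcodes. That choice favors lower values in B and T barcodes, so no conclusion is drawn from the 3 calls. Fibroblast genes, with Col1a1 the most abundant, summed to 918, 74.5 and 399 CPM in T barcodes and 64.1, 8.04 and 29.1 in B and T barcodes, and their part in these calls was not tested. Each of these calls was lost without αPD-1 replicate 2, and 10 genes were lower without αPD-1 replicate 1 or replicate 3.

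No T cell state list held a called T-side gene. Since 0% of all 237 were called higher and 1.27% lower, this absence is not a result about these lists. On this scale, Cd4 differed by 0.00 ± 0.13 (log2 ± SE) and Cd8a by -0.12 ± 0.06. Of the cytotoxic list, 10 genes were tested with a median of -0.09, and Gzmb, a granzyme, was at -0.27 ± 0.11 (adjusted p = 0.522). Of the regulatory T cell list, 8 genes were tested with a median of 0.06, and Foxp3, its defining factor, was at 0.06 ± 0.15. Of the naive T cell list, 3 genes were tested with a median of 0.05, since Lef1 and others were less than 10 times higher in T barcodes than in B barcodes. Of the follicular helper list, 5 genes had a median of -0.07, with Icos at -0.07 ± 0.08 and Cd40lg, the ligand of CD40, at 0.18 ± 0.23. Of the inhibitory receptors, 5 genes had a median of -0.03, with Pdcd1 at -0.11 ± 0.08. The median over all 237 genes was -0.03. T-side genes were chosen for a high level in the same T barcodes, and a p above the threshold does not show that levels were equal.

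The B cell component carried naive and follicular genes. Ighd was at 222, 178 and 262 CPM in B and T barcodes, 317, 352 and 417 in B barcodes and 9.32, 6.73 and 8.08 in T barcodes of the αPD-1 samples. Its fraction of Ighd and Ighm UMIs was 26.8%, 26.9% and 29.6% in B and T barcodes and 27.1%, 29.2% and 24.2% in B barcodes. Over 6 samples the difference was 5.14 percentage points, and B and T barcodes were higher in 3 of 6 (exact sign-flip permutation p = 0.5, adjusted p = 0.594). It rested on αPD-1 + corin replicate 1, whose 11 barcodes differed by 29.4 percentage points, and without that sample it was 0.301. An Ighd UMI was present in 76.2% ± 0.769 of B and T barcodes, 65.5% ± 2.46 of B barcodes and 1.36% ± 0.222 of macrophage barcodes, and in 25.1% ± 3.60, 44.2% ± 1.02 and 0.362% ± 0.316 after thinning (SD, n = 3 each). Fcmr, an IgM receptor, was at 179, 190 and 209 CPM in B and T barcodes and 249, 399 and 353 in B barcodes.

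By CPM, Cxcr5 and Bcl6 were closer to B barcodes than to T barcodes. Cxcr5 was at 44.3, 42.6 and 55.6 CPM in B and T barcodes, 51.3, 73.2 and 67.9 in B barcodes and 10.1, 8.02 and 9.09 in T barcodes. Bcl6 was at 62.0, 56.6 and 55.6 in B and T barcodes, 46.2, 59.7 and 54.5 in B barcodes and 34.4, 25.4 and 40.4 in T barcodes. Bcl6 levels of B and T barcodes therefore overlapped those of B barcodes and lay above those of T barcodes. Macrophage barcodes had the highest levels, at 73.5, 69.8 and 72.6, and thus do not serve as a class without Bcl6. A Bcl6 UMI was present in 37.8% ± 2.92 of B and T barcodes, 16.3% ± 1.23 of B barcodes and 11.7% ± 0.936 of T barcodes, and after thinning in 6.92% ± 1.62, 7.28% ± 0.805 and 3.60% ± 0.602 (SD, n = 3 each). A Cxcr5 UMI was present in 31.9% ± 2.62 of B and T barcodes, 19.6% ± 1.29 of B barcodes, 3.58% ± 0.230 of T barcodes and 0.762% ± 0.161 of macrophage barcodes (5.07% ± 1.15, 9.92% ± 0.752, 1.04% ± 0.448 and 0.338% ± 0.0481 after thinning). On the thinned means, the Cxcr5 share of B and T barcodes thus lay nearer to T barcodes, although in αPD-1 replicate 3 it lay nearer to B barcodes. Il21, a cytokine of follicular helper T cells, was at 3.55, 0.670 and 1.87 CPM in B and T barcodes.

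**Figure D4:**
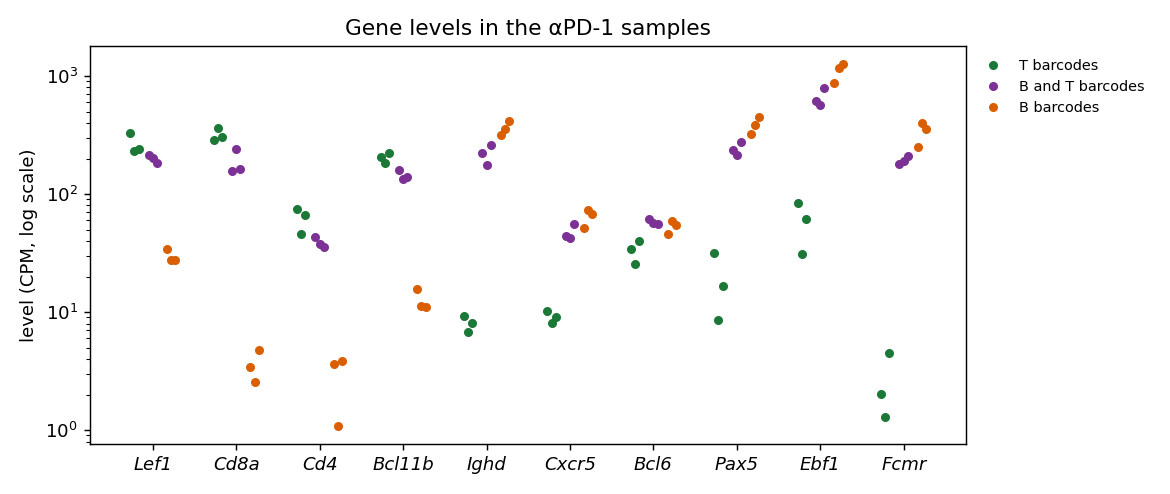
Levels (CPM, log scale) of 10 genes in T barcodes, B and T barcodes and B barcodes of the αPD-1 samples, with 1 point per sample. B and T barcodes lie between the single classes for each gene except Bcl6, where they overlap B barcodes.

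Among B-side genes, none of 248 was called higher (0%) or lower (0%) in B and T barcodes than in B barcodes by edgeR, and 21 had an unadjusted p below 0.05. DESeq2 called 4 higher and 19 lower. Of the B cell identity list, 11 of 11 tested genes had a positive log2 fold change with a median of 0.24, and of the naive and follicular list 4 of 4 with a median of 0.19. The 4 plasma cell genes tested all had negative values with a median of -0.56. The median over all 248 genes was -0.13. Examples were Pax5 at 0.32 ± 0.26 SE, Ighd at 0.27 ± 0.27 and Jchain, the joining chain of secreted antibodies, at -1.03 ± 0.23 (edgeR adjusted p = 0.719, 0.752 and 0.386). Jchain was at 1857, 582 and 719 CPM in B and T barcodes and 7658, 2055 and 3331 in B barcodes. Summed over 8 genes, plasma cell transcripts reached 29.6% ± 5.80 (SD, n = 3) of their level in B barcodes, while the 12 B cell identity genes reached 60.2% ± 9.22. No single plasma cell gene passed the test. B-side genes were chosen for a high level in the same B barcodes, which favors lower values in B and T barcodes. The signs and medians are therefore descriptions.

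Receptor variable genes were more mixed within B and T barcodes. A T cell normally uses 1 beta chain variable (Trbv) gene, and a B cell 1 heavy chain variable (Ighv) gene. In barcodes with at least 4 Trbv UMIs, the most abundant Trbv gene held on average 68.3%, 75.7% and 71.7% of the Trbv UMIs of B and T barcodes in the αPD-1 samples (196, 132 and 132 barcodes). In T barcodes it held 85.4%, 89.2% and 89.1% (174, 258 and 92 barcodes). The share was lower in B and T barcodes in 6 of 6 samples, by 14.6 percentage points on average (exact sign-flip permutation p = 0.031, the smallest that 6 samples allow, adjusted p = 0.125). It therefore did not pass the correction over 4 quantities. The αPD-1 + corin values came from 2, 6 and 2 B and T barcodes. A second Trbv gene with 2 or more UMIs was present in 50%, 38.6% and 42.4% of B and T barcodes and in 21.8%, 19.0% and 14.1% of T barcodes of the αPD-1 samples.

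In the αPD-1 samples the difference held at equal numbers of variable gene UMIs. With 8 to 15 Trbv UMIs, the leading gene held 63.5%, 73.3% and 68.8% in B and T barcodes and 86.0%, 88.4% and 86.4% in T barcodes. For Ighv, the leading gene held 69.3%, 73.6% and 66.2% in B and T barcodes and 84.5%, 87.0% and 84.4% in B barcodes of the αPD-1 samples. With 4 to 7 Ighv UMIs the values were 62.8%, 76.0% and 60.9% against 77.8%, 87.5% and 79.5%. Over all 6 samples the Ighv difference was -9.83 percentage points and was negative in 4 of 6 samples (exact sign-flip permutation p = 0.125, adjusted p = 0.25). In the other 2 samples, αPD-1 + corin replicates 2 and 3, it was 0.0390 and 0.463 percentage points over 3 and 2 B and T barcodes. Reads of near-identical variable genes may be split or discarded by the authors' counting, and immunoglobulin RNA free in the droplets was not removed. Kappa and lambda light chain UMIs, at least 2 of each, were found in 73.0%, 69.5% and 73.2% of B barcodes and in 80.2%, 75% and 83.0% of B and T barcodes with 4 or more such UMIs.

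**Figure D5:**
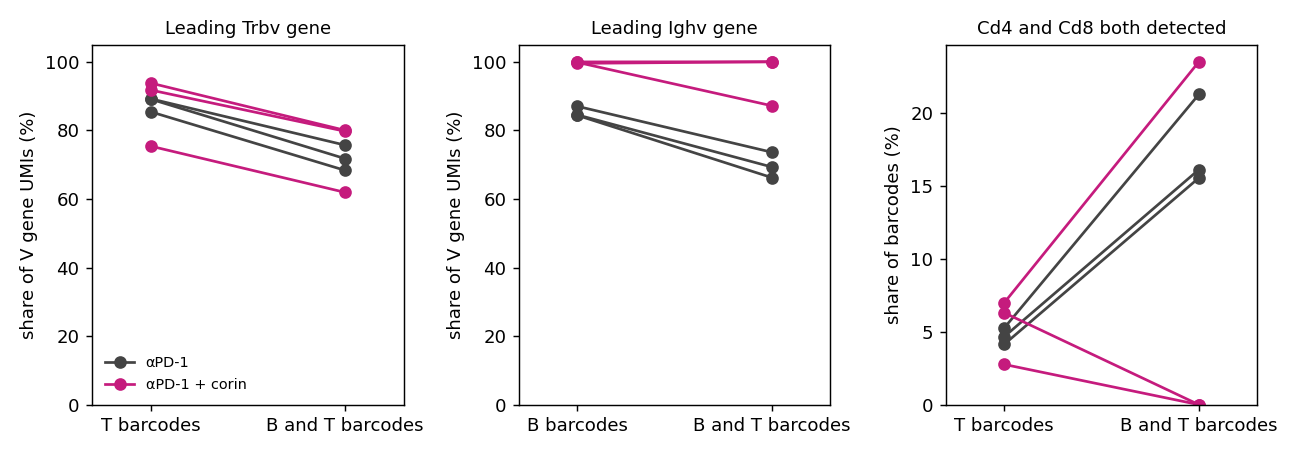
Share (%) of Trbv or Ighv UMIs in the most abundant such gene of a barcode, averaged over barcodes, and share (%) of barcodes with a coreceptor UMI that had both Cd4 and Cd8. Each line joins the single class and the B and T barcodes of 1 sample. Lines fall for Trbv in 6 of 6 samples, and the αPD-1 + corin points of the B and T barcodes rest on few barcodes.

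Gene levels in B and T barcodes were compared between treatments on UMI sums per sample. The αPD-1 samples contributed 12077547 UMIs and the αPD-1 + corin samples 414605, of which 277368 came from replicate 2. Of 9907 genes tested with edgeR, 145 (1.46%) were higher and 82 (0.828%) were lower with αPD-1 + corin at an adjusted p below 0.05, and the median log2 fold change was -0.11. Without αPD-1 + corin replicate 2, only 12 were higher and 12 lower, and without αPD-1 + corin replicate 3, 305 and 150. CPM levels in a mixed barcode cannot tell apart less of one cell's RNA and less of a transcript within that cell.

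Among called genes with at least 20 CPM and no overlap between treatments, the 8 largest rises were those of Il1f9, the neutrophil genes S100a9 and S100a8, the chemokines Cxcl3 and Cxcl2, and Gm13986, Tnfaip6 and Hcar2. Il1f9, an interleukin-1 family cytokine, had 1 UMI in all αPD-1 B and T barcodes and 42 with αPD-1 + corin, a ratio of 1223 (95% counting interval 208 to 49460). S100a9, a calcium-binding protein of neutrophils, was at 3.55, 3.69 and 11 CPM with αPD-1 and 2570, 5314 and 16.9 with αPD-1 + corin (log2 fold change 8.84 ± 1.23 SE, edgeR adjusted p = 0.00273). Replicate 3 of αPD-1 + corin was thus far below the other two, and its value is a single UMI in 1 of 6 barcodes. The same holds there for Il1f9, S100a8 and Tnfaip6, so the lack of overlap between treatments for these 4 genes rests on 1 UMI each. Cxcl3 (5 UMIs) and Gm13986 (3 UMIs) also came from 1 barcode of that sample. S100a8, its partner, followed with 7.80 ± 1.06 SE. Cxcl2, a chemokine for neutrophils, was at 162, 196 and 299 with αPD-1 and 5983, 5866 and 2457 with αPD-1 + corin (4.46 ± 0.38 SE, adjusted p = 0.000161). Cxcl3, a related chemokine, Tnfaip6, a hyaluronan-binding protein, Hcar2, a metabolite receptor, and the transcript Gm13986 rose by 6.29, 5.15, 4.81 and 5.35 (log2). The calls of Tnfaip6 and Hcar2 were lost without αPD-1 + corin replicate 2.

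These rises were not confined to B and T barcodes. For all 8 of these genes, T barcodes of the αPD-1 + corin samples were also above those of the αPD-1 samples without overlap. The same was true of 5 of the 8 in macrophage barcodes and of 1 of the 8 in B barcodes. No share over all genes is set beside these counts, which are therefore descriptions. S100a9, for example, was at 67.2, 7.51 and 2.02 CPM in αPD-1 T barcodes and at 1949, 4175 and 218 in αPD-1 + corin T barcodes. In B barcodes it was at 16.5, 41.1 and 69.1 with αPD-1 and at 5850, 1589 and 0 with αPD-1 + corin, where replicate 3 had 29 B barcodes. Summed over the 4 neutrophil genes, B and T barcodes had 14.8, 18.8 and 36.6 CPM with αPD-1 and 4807, 8141 and 33.9 with αPD-1 + corin. None of the 4 genes was at 0 over the αPD-1 samples, and S100a9 was the most abundant in T and B barcodes. All 3 neutrophil genes tested were higher, beside 1.46% of all genes tested, although Csf3r, a growth factor receptor of neutrophils, was at 7.47, 10.4 and 11.2 CPM with αPD-1 and at 51.1, 155 and 0 with αPD-1 + corin, with replicate 3 below all αPD-1 samples. Col3a1, a collagen gene of the fibroblast list, was higher through replicate 2 alone (12.8, 1860 and 0 CPM). The part of RNA from these cell types in the calls was not tested.

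Some naive T cell and naive B cell genes fell with αPD-1 + corin, beside 0.828% of all genes tested. Of 11 naive T cell genes, 4 were lower (Lef1, Dapl1, Satb1 and Bach2), none was higher, and the median log2 fold change was -1.51. Lef1 was at 25.6, 36.1 and 16.9 CPM with αPD-1 + corin, against 184 or more in each αPD-1 sample. In T barcodes it was at 331, 234 and 239 with αPD-1 and 44.2, 40.3 and 37.5 with αPD-1 + corin. Dapl1, a gene of naive T cells, had 495 UMIs with αPD-1 and 0 with αPD-1 + corin and was at least 5.66-fold lower, with a floor of 3 counts over the group. Its call was lost without αPD-1 + corin replicate 1 or replicate 2, and it had a value in only 10 of 12 alternatives. Of the 12 B cell identity genes, 6 were lower (Pax5, Ebf1, Cd22, Bank1, Ralgps2 and Fcer2a), none was higher, and the median was -1.25. Pax5, the B lineage factor, was at 235, 215 and 277 with αPD-1 and 76.7, 86.5 and 102 with αPD-1 + corin. In B barcodes it was at 324, 388 and 449 with αPD-1 and 135, 80.1 and 43.8 with αPD-1 + corin, so that it was lower there too. Of the 11 naive and follicular B cell genes, 5 were lower (Fcer2a, Fcmr, Btla, Bach2 and Zfp318), with a median of -1.37. Of the 15 T cell identity genes, Bcl11b and Skap1 were lower, and the median was -0.33.

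The constant region genes Ighg2c and Ighg2b and some heat shock genes were among the largest falls, while none of the 7 plasma cell genes tested passed (4 positive, median 0.20). Ighg2c, an IgG constant region, was at 1033, 780 and 1180 CPM with αPD-1 and 0, 0 and 33.9 with αPD-1 + corin. It had 2 UMIs in all in the latter, a ratio of 211 (95% counting interval 58.3 to 1739). Few barcodes carried it, with a UMI in 46 of 531, 7 of 312 and 32 of 422 B and T barcodes with αPD-1 and in 0 of 11, 0 of 23 and 1 of 6 with αPD-1 + corin. The ratio of UMIs and its interval therefore rest on a few barcodes rich in this transcript. Ighg2b was at 380, 209 and 270 with αPD-1 and 102, 0 and 0 with αPD-1 + corin, and its call was lost with DESeq2 and without αPD-1 + corin replicate 2 or replicate 3. Its UMIs came from 21, 7 and 17 B and T barcodes with αPD-1 and from 1, 0 and 0 with αPD-1 + corin, so that these levels, too, are those of a few barcodes. Both were also lower in B barcodes, where Ighg2c was at 4823, 2003 and 2993 with αPD-1 and 5.39, 0 and 2.57 with αPD-1 + corin. Reads of these near-identical constant regions may be split between them. Of 12 stress and immediate early genes, 3 were lower, Hspa1a, Hspa1b and Dnajb1, all heat shock chaperones, beside 0.828% of all genes tested, while 6 of 12 had a positive log2 fold change and the median was -0.06. Hspa1b was at 1606, 1606 and 1460 with αPD-1 and 141, 104.6 and 339 with αPD-1 + corin (-3.16 ± 0.34 SE, adjusted p = 0.000543). Hspb1, a small heat shock protein, was at 253, 212 and 156 with αPD-1 and 0, 14.4 and 0 with αPD-1 + corin. The latter was 4 UMIs in 1 barcode. Its log2 fold change was -4.41 ± 0.52 SE and ran from -11.99 to -4.10 under the alternatives. In T barcodes, Hspa1b was at 976, 810 and 651 with αPD-1 and 114, 116 and 425 with αPD-1 + corin, so that levels were lower there too.

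Zdhhc13, a palmitoyltransferase, had 362 UMIs with αPD-1 and 0 with αPD-1 + corin and was at least 4.14-fold lower, but its call was lost without αPD-1 + corin replicate 2. It had a value in only 9 of the 12 alternatives. Rapgef4, a cAMP-regulated exchange factor, and Chst3, a sulfotransferase, had 3 UMIs each with αPD-1 + corin, for ratios of 8.79 (95% counting interval 3.00 to 42.7) and 7.43 (2.53 to 36.1). The Rapgef4 call was lost without αPD-1 replicate 1 or αPD-1 + corin replicate 2, and the Chst3 call in 5 of 12 alternatives, among them at most 4000 genes and 3 UMIs of each lineage. In B barcodes, Rapgef4 was at 74.6, 111 and 119.5 CPM with αPD-1 and 78.1, 183 and 169.8 with αPD-1 + corin, and thus not lower. Of the 8 largest falls (Dapl1, Zdhhc13, Ighg2c, Hspb1, Ighg2b, Hspa1b, Rapgef4 and Chst3), 5 were also lower without overlap in T barcodes, 7 in B barcodes and 5 in macrophage barcodes. For Hspb1, the lowest αPD-1 and the highest αPD-1 + corin samples were at 66.5 and 65.95 CPM in T barcodes. In macrophage barcodes they were at 90.5 and 90.4 CPM. These counts, too, have no share over all genes beside them and are descriptions.

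Of the activated and effector lists, single genes were higher, beside 1.46% of all genes tested. Of 12 cytotoxic genes, Ccl4, a chemokine of cytotoxic and myeloid cells, was higher at 1189, 970 and 3355 CPM against 485, 626 and 431, and the list's median was 0.52. Of 7 inhibitory receptors, Entpd1, the ectoenzyme CD39, was higher. Of 13 activated B cell and 21 T-B contact genes, Cd80, a ligand of CD28 held by both lists, was higher. Of 7 germinal center genes tested, Basp1 was higher at 371, 274 and 50.8 against at most 103, with the lowest αPD-1 + corin sample below all αPD-1 samples. None of the 3 coreceptor genes, 9 regulatory T cell genes, 9 follicular helper genes or 7 plasma cell genes tested was called, nor any of the 6 macrophage, 7 dendritic cell, 2 NK cell, 5 melanoma and 10 cell cycle genes. Of the endothelial list, the 1 gene tested, Pecam1, an adhesion molecule also found on leukocytes, was lower. The Ighd fraction was 27.8% ± 1.58 with αPD-1 and 18.8% ± 14.8 with αPD-1 + corin, and the Cd4 fraction 8.68% ± 2.10 and 32.3% ± 48.1 (SD, n = 3 each), with exact permutation p = 0.4 and 0.8 (adjusted p = 0.533 and 0.8). Between 6 and 23 barcodes per αPD-1 + corin sample stand behind these values.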

How the data were processed

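Single-cell RNA-Seq of 6 samples was analysed. The authors mapped reads to GRCm39 with Cell Ranger 8.0 and deposited raw UMI counts of 32285 genes for barcodes called as cells, without normalization. The labels do not say that doublets were removed before deposit, and the study removed them with DoubletFinder in its own analysis. Here none were removed, since the rule selects barcodes with 2 lineages. Scrublet (scanpy 1.11.5) marked 0 barcodes at its own threshold, so the alternative removed the highest scores at an assumed rate, 166 to 700 barcodes per sample. Members and gene lists were chosen with earlier results of these data known. Shares and fractions were compared with two-sided exact permutation tests over samples. Sums of UMI counts over the barcodes of a class entered a quasi-likelihood fit in edgeR 4.0.16 (TMM, filterByExpr, Benjamini-Hochberg, 0.05), on all 6 samples for treatment and on the αPD-1 samples with sample as block for classes. Standard errors are the log2 fold change over the root of the F statistic. DESeq2 1.42.0 was an alternative.

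The fits were tested on simulated data with 4-fold changes. The treatment fit found 91 of 200 changed genes, with 4 false calls. The T-side fit found 73 of 74 with 4 false calls, and the B-side fit 78 of 79 with 3. A gene not called by treatment may therefore have changed. Every simulated gene had the same fixed spread between samples (dispersion). In the αPD-1 + corin sums, from 11, 23 and 6 barcodes, the UMIs of a gene could lie in 1 barcode. The simulation did not include this, so its numbers of found and false calls may not hold for the treatment fit. Named genes are those of the rule and its question, list genes that passed, up to 4 others per list, and the largest changes past the threshold with at least 20 CPM and no overlap (8 each way by treatment, 10 each way by class). Genes beyond both classes were ranked by the smaller ratio, and up to 10 could be named. Variable genes were counted as a group. Counting intervals (Wilson for shares, exact Clopper-Pearson for ratios, both 95%) cover counting error only. Alternatives were limits of 4000 genes and 5% mitochondrial UMIs, 3 UMIs per lineage, no C1q limit, single classes with at most 1 UMI of the other lineage, at least 8 variable gene UMIs, a side gene ratio of 30, size factors by RLE, all genes without a count filter, a replicate block, and each sample left out. R 4.3.3 and Python 3.11.15 were used. The values of some list genes are not reported here, although counts over the lists include them.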

Additional observations from a re-analysis of the deposited data

How the results depend on the processing

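Of 179 values of the main results under the alternatives, 156 kept their direction and side of the threshold or stayed within 1.5 times the reported count. For treatment, DESeq2 gave 260 genes higher and 135 lower, and testing without a filter on low counts gave 517 and 373. Lower T-side genes numbered 5 with at most 4000 genes, 1 with 3 UMIs of each lineage, and 0 with a side gene ratio of 30, with all 6 samples, with single classes of at most 1 UMI of the other lineage, and without the replicate block (sample as block). For the B side, DESeq2 gave 4 higher and 19 lower. The cause was not tested in these cases, beyond the fewer genes at a ratio of 30.

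With each sample left out in turn, genes called by treatment ranged from 12 to 305 higher and from 12 to 150 lower, and lower T-side genes from 0 to 10. The difference in Cd4 fraction between treatments ranged from -4.02 to 39.7 percentage points, and that between B and T barcodes and T barcodes from -0.189 to 15.1, both negative only without αPD-1 + corin replicate 1. The difference in member share ranged from -8.25 to -6.83 percentage points, in leading Trbv share from -15.1 to -14.0, and in leading Ighv share from -11.9 to -8.16. Median UMIs differed by 1029 to 2370, the Ighd fraction by -16.2 to -1.44 percentage points between treatments and by 0.301 to 6.87 between classes. With the αPD-1 samples alone, an alternative chosen after seeing the data, the leading share was lower by 16 (Trbv) and 15.6 (Ighv) percentage points, with exact sign-flip p = 0.25 each, the smallest that 3 samples allow. B-side fits without immunoglobulin and variable genes, also chosen after seeing the data, called 0 genes.

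The replicate block by number gave 187 genes higher and 112 lower for treatment and p = 0.25 for the share by exact sign flips. Deviations of same-numbered samples correlated at 0, -0.054 and -0.138 across genes, so the numbers were not taken as pairs, and not every sample correlated best with its own number. Of the named genes, Cd4 on the T side was the only one whose direction turned, at -0.00022 with RLE size factors, -0.00013 with DESeq2, -0.0166 without the replicate block and -0.0758 without αPD-1 replicate 2 (range -0.0758 to 0.101 with each sample left out). Calls of named genes were lost in 25 of 246 values, and alternatives in which a gene was not tested are not among these values. Removing the highest Scrublet scores took out 23, 13 and 20 B and T barcodes with αPD-1 and 0 with αPD-1 + corin, and the mean shares became 7.76% and 0.213%. The 40 αPD-1 + corin barcodes limit every treatment comparison.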
